A study of Mus musculus with 12 samples.

Results

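Mouse embryonic stem cells given 4OHT and MG132 together for 6 h were compared with untreated cells, to describe which effects of the 2 compounds added, cancelled or prevailed when both were present. The comparison rests on 6 of the 12 microarrays in the study, chosen by their labels alone. They are 3 from cells given both compounds and 3 from untreated cells. The spread of each gene was estimated from all 12 arrays. Across all genes, the end state combined high levels of genes that respond to the kinase ERK (Egr1, Fos, Spry4), to misfolded protein and amino acid stress (Hspa1a, Ddit3, Slc7a11) and to p53 (Pmaip1, Mdm2) with low levels of pluripotency genes (Nanog, Klf2, Tdgf1), each relative to untreated cells. Where the single compounds moved a gene in opposite directions, the direction of MG132 was kept in 169 of 320 genes and that of 4OHT in 26, Egr1 and Spry4 among them. These counts were 89 and 11 with array slide as a term, and 20 and 13 with another background correction (normexp). Of the 169 genes, 139 were lowered by 4OHT alone and raised by MG132 alone.

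MG132 blocks the proteasome, the protease complex that degrades proteins tagged with ubiquitin, and cells with a blocked proteasome are known to switch on chaperones, the transcription factor ATF4 and, because p53 itself is degraded this way, p53 target genes. 4OHT (4-hydroxytamoxifen) binds modified oestrogen receptors, and proteins that carry such a receptor as a fusion become active when it is added. ERK, a kinase downstream of fibroblast growth factor receptors, drives the rapid transcription of immediate-early genes and of its own inhibitors, and in mouse embryonic stem cells it is known to favour exit from naive pluripotency.

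Cells of the combined group were given 250 nM 4OHT for 6 h, with 1 µM MG132 added 30 min earlier and kept on. Cells of the 4OHT group had 250 nM 4OHT for 6 h, and cells of the MG132 group had 1 µM MG132 for the same 30 min and 6 h. Untreated cells were titled as 0 h. All groups grew with leukaemia inhibitory factor (LIF) and 250 nM PD173074, which inhibits receptors for fibroblast growth factor. The labels name no fusion protein for 4OHT to act on, no vehicle control and no untreated cells at 6 h, so compound and hours of culture cannot be told apart here. In bulk RNA, fewer cells of a type and less RNA per cell cannot be told apart either.

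The 3 arrays with both compounds shared a slide with MG132 replicate 3, and the 3 untreated arrays lay on the other slide with the remaining 5 arrays. Slide and treatment are thus separated only through the MG132 arrays, and values with slide as a term are given at the end. With slide as the only added fixed term, its effect is the difference of MG132 replicate 3 from MG132 replicates 1 and 2. That effect cannot be told apart from a difference of replicate 3. Between 49.4% and 63.2% of probes on an array lay well above background. Precision is limited by the number of arrays. The typical deviation of an array from its group mean was 0.261 with both compounds, 0.512 with 4OHT, 0.327 with MG132 and 0.269 in untreated cells (log2 SD). Replicate 3 arrays of the combined and untreated groups deviated together, with a correlation across genes of 0.354. Embryonic stem cell markers were above background on all arrays (12 of 12 genes), and their summed level was 525 to 636 with both compounds, against 944 to 1030 in untreated cells, in multiples of an array's 75th percentile. Of the other cell types, trophoblast markers summed to 25 to 42 with both compounds and 10.8 to 11.6 in untreated cells, primitive endoderm markers to 218 to 250 with both compounds and 141 to 200 in untreated cells, and fibroblast markers to 109 to 121 with both compounds and 89 to 113 in untreated cells. Of the markers tested, 10 of 12 stem cell markers fell and 0 rose, 6 of 8 trophoblast markers rose and 0 fell, 4 of 12 primitive endoderm markers rose and 1 fell, and 3 of 9 fibroblast markers (Col1a1, Thy1 and Twist1) rose and 1 fell. Over all genes 33.2% rose and 22.5% fell. The shares of primitive endoderm and fibroblast markers that rose were close to that of all genes. Elf5 (trophoblast) and Lum (fibroblast) were above background on 0 arrays.

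Levels below are log2 intensities relative to the array's 75th percentile, so that 0 is that percentile, and changes are differences of such levels with their standard error (SE) and an adjusted p from limma with Benjamini-Hochberg adjustment, n = 3 arrays a group. A gene was called at an adjusted p under 0.05. Of 26836 genes tested, 8900 rose with both compounds (33.2%) and 6032 fell (22.5%), and 6319 (23.5%) were called and changed at least 2-fold. With arrays scaled by quantiles 6694 rose and 7145 fell, and with arrays centred on their median 4451 rose and 9995 fell. The median change of all genes was 0.19, or -0.21 after median centring, so small shifts of a gene group have no settled direction. The shares of 33.2% risen and 22.5% fallen are the background for every gene group below.

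**Figure D1:**
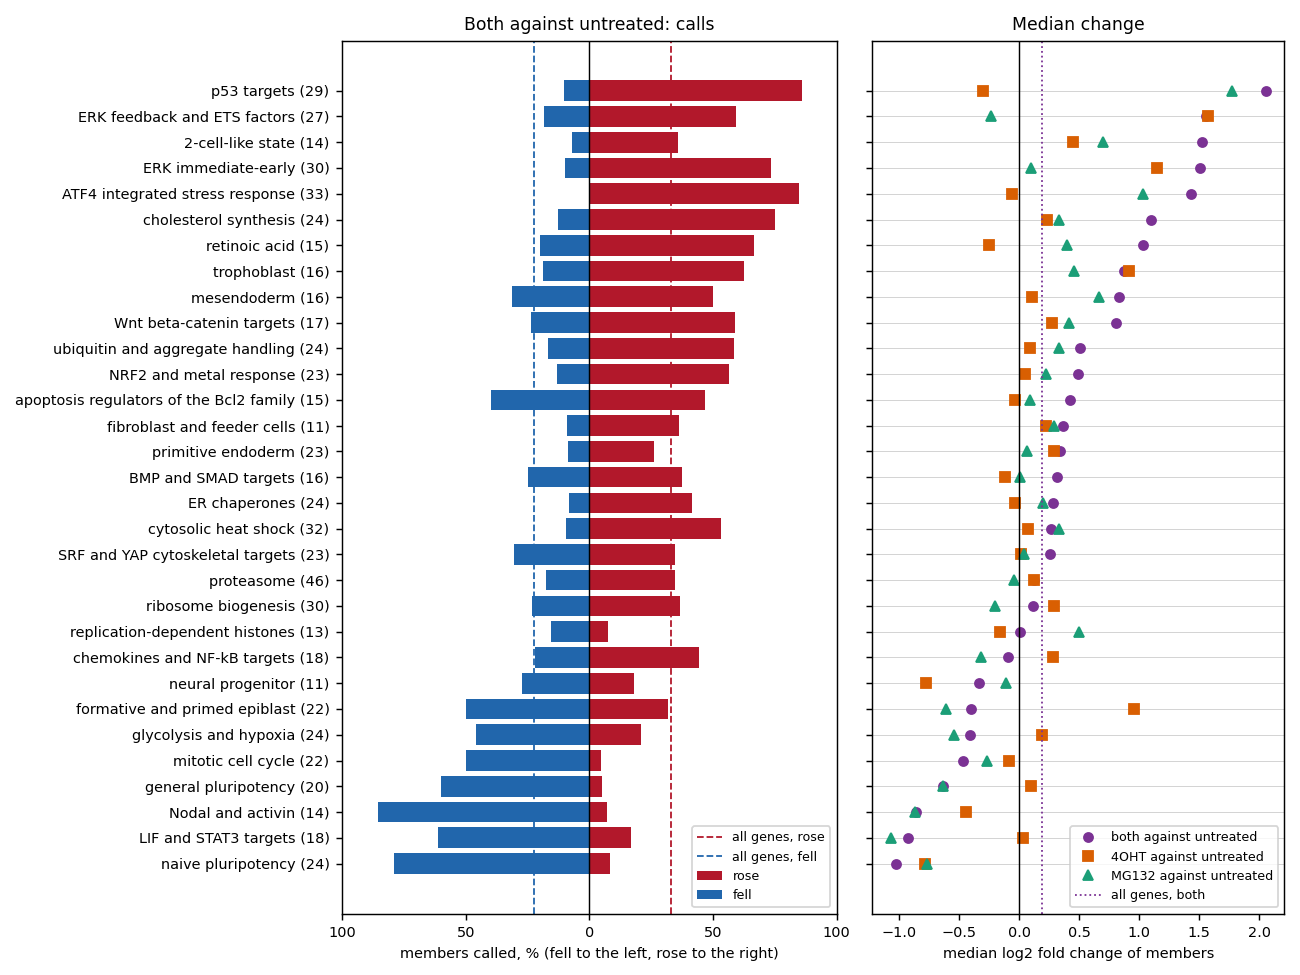
The left panel plots, for 31 gene lists (number of genes tested in brackets), the percentage of members that fell or rose with both compounds against untreated cells, with dashed lines at the shares of all genes. The right panel plots the median log2 fold change of each list with both compounds, with 4OHT and with MG132, each against the same untreated arrays; p53 and ATF4 lists lie far right for both compounds and MG132, and naive pluripotency lies lowest for both compounds.

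ERK-responsive immediate-early genes were among the most raised. Egr1, a zinc finger transcription factor induced within minutes of ERK activation, had levels of 6.56, 6.53 and 6.28 with both compounds, 4.45, 4.21 and 3.82 with 4OHT, -1.68, -1.63 and -2.35 with MG132 and 0.92, 1.08 and 1.21 in untreated cells. All arrays with both compounds lay above every other array, and all MG132 arrays lay below the untreated ones. Egr1 rose by 5.39 ± 0.21 (adjusted p = 1.1e-07), a 41.9-fold change. Fos, a subunit of the AP-1 factor, had levels of 2.51, 2.60 and 2.67 with both compounds and -1.035, -0.939 and -1.003 in untreated cells. It rose by 3.58 ± 0.20 (adjusted p = 5.7e-07), while the change with 4OHT was 2.02 and with MG132 0.14. Fosl1, another AP-1 subunit, rose by 7.05 ± 0.34 (adjusted p = 3.1e-07), and here each compound alone also gave a large change, 5.02 with 4OHT and 4.33 with MG132. Egr3 was not well above background on any untreated array and was at least 33.8-fold higher with both compounds (adjusted p = 2.8e-07).

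Of 30 immediate-early genes tested, 22 rose and 3 fell, with a median change of 1.5 beside 0.19 for all genes. Arc (4.17), Fosl2 (4.04), Egr2 (3.84), Maff (3.20), Jun (3.08) and Fosb (2.98) were further members that rose. The 3 that fell, Nr4a1, Jund and Srf, moved little (-0.63, -0.43 and -0.40), and Srf encodes the serum response factor that acts at many of these genes. Myc did not pass the test and is described with the opposed genes.

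The inhibitors that ERK signalling raises against itself were also high. Spry4, a Sprouty inhibitor of receptor signalling, had levels of 0.75, 0.85 and 0.68 with both compounds, 1.52, 1.34 and 0.70 with 4OHT, -4.38, -4.49 and -4.93 with MG132 and -2.05, -2.33 and -2.03 in untreated cells. The arrays with both compounds overlapped the 4OHT arrays and stood clear of the MG132 and untreated arrays. Spry4 rose by 2.90 ± 0.21 (adjusted p = 3e-06). Dusp6, a phosphatase that inactivates ERK, had levels of 4.32, 4.32 and 4.51 with both compounds and 2.76, 2.77 and 3.21 in untreated cells and rose by 1.47 ± 0.18 (adjusted p = 8.5e-05). The 4OHT arrays lay higher than the arrays with both compounds for Dusp6, at 5.20, 5.11 and 5.43.

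Among 27 feedback genes and ETS factors, 16 rose and 5 fell, with a median of 1.56. The phosphatases Dusp2 (3.56), Dusp4 (3.43), Dusp1 (2.89) and Dusp5 (2.79) rose, as did Phlda1 (5.88) and the ETS factor Etv4 (2.19). Growth factors that bind the epidermal growth factor receptor rose too. Areg was at least 39.4-fold higher (adjusted p = 2.3e-06), Ereg at least 5.08-fold higher (adjusted p = 4.1e-05), and Hbegf changed by 3.66. Ccnd1, the cyclin of early cell cycle entry, fell by 1.53 and Dusp7 fell by 1.51.

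**Figure D2:**
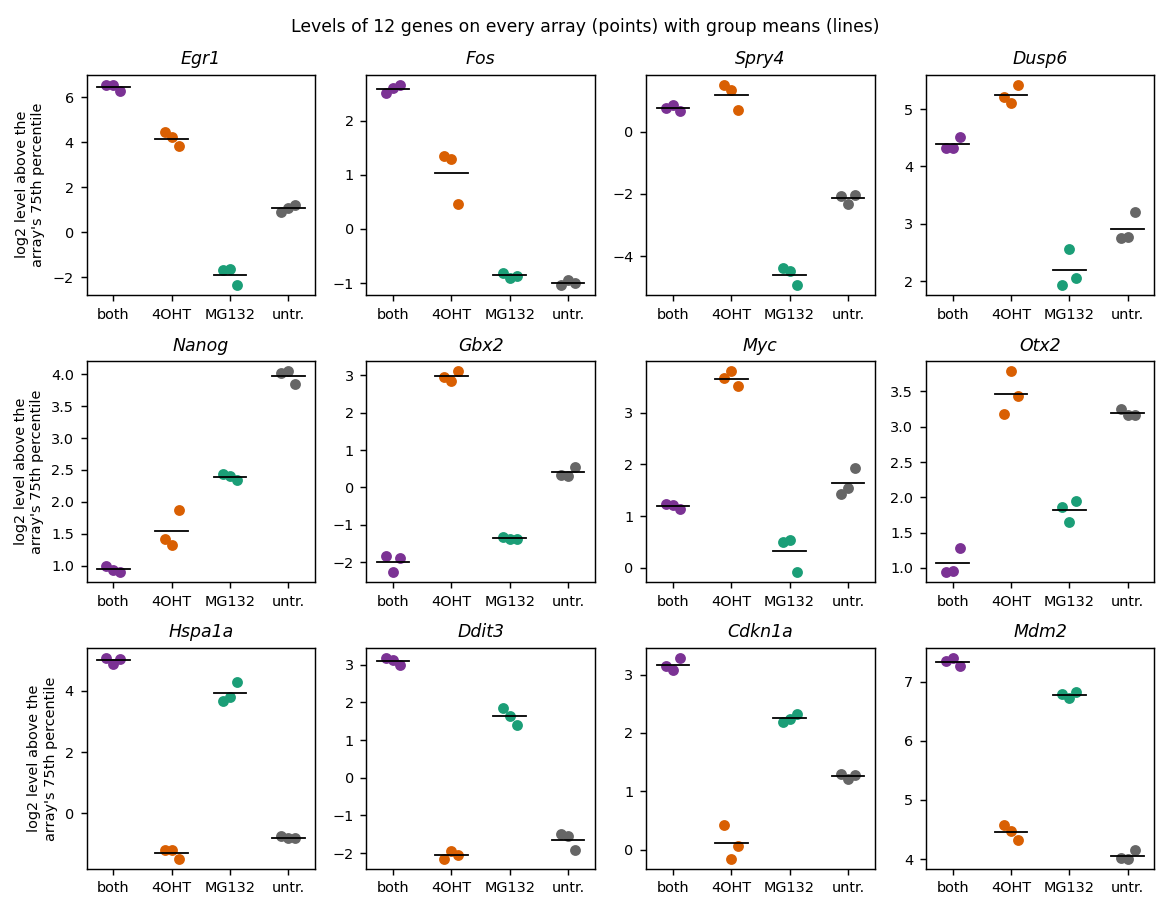
Each panel plots 1 gene's log2 level relative to the array's 75th percentile on all 12 arrays (points) with group means (lines), for both compounds, 4OHT, MG132 and untreated (untr.) cells; vertical axes differ between panels. For Egr1, Fos, Hspa1a, Ddit3, Cdkn1a and Mdm2 all 3 arrays with both compounds lie above every other array, and for Nanog, Gbx2 and Otx2 they lie below every other array.

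Naive pluripotency genes fell. Nanog, a homeodomain factor of the naive network, had levels of 1.00, 0.94 and 0.91 with both compounds, 1.41, 1.33 and 1.87 with 4OHT, 2.44, 2.40 and 2.35 with MG132 and 4.01, 4.04 and 3.84 in untreated cells. The groups did not overlap, and the arrays with both compounds were lowest. Nanog fell by 3.02 (SE 0.13, adjusted p = 1.9e-07), which makes untreated cells 8.09-fold higher. Klf2 and Klf4, Kruppel-like factors of the same network, changed by -2.96 ± 0.33 (adjusted p = 4.4e-05) and -2.51 ± 0.28 (adjusted p = 4.3e-05). Esrrb, a nuclear receptor of that network, changed by -1.27 ± 0.14 (adjusted p = 3.1e-05).

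Of 24 naive genes tested, 19 fell and 2 rose, with a median of -1.03. Dppa3, Fgf4, Tcl1, Fbxo15 and Tfcp2l1 changed by -2.23, -2.15, -2.09, -2.05 and -1.68. The 2 that rose were Nr0b1 (1.32) and Manba (2.34). Klf5, Pecam1 and Rex2 did not pass the test.

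Genes shared by naive and later pluripotent states were also lower. Pou5f1 (Oct4) had levels of 5.63, 5.65 and 5.62 with both compounds and 6.14, 6.22 and 6.17 in untreated cells, a change of -0.54 ± 0.15 (adjusted p = 0.011). Sox2, its partner, changed by -1.32 ± 0.10 (adjusted p = 2.8e-06). Tdgf1 (Cripto), the co-receptor for Nodal, had levels of 0.60, 0.55 and 0.67 with both compounds and 3.90, 3.89 and 3.88 in untreated cells and changed by -3.28 ± 0.08 (adjusted p = 1.2e-08). Of 20 genes of the general list 12 fell and 1 rose, with a median of -0.64.

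LIF and Nodal pathway genes were also lower, in lists that share members with others. The LIF list holds Klf4, Klf5, Gbx2 and Tfcp2l1 of the naive list. The Nodal list holds Tdgf1 of the general list and Nodal, Lefty2 and Cer1 of the mesendoderm list. Their counts are therefore not separate. Of 18 LIF and STAT3 targets 11 fell and 3 rose, with a median of -0.93. Socs3, the feedback inhibitor of STAT3, changed by -2.48 ± 0.14 (adjusted p = 6.6e-07), Stat3 itself by -1.44 and the LIF receptor Lifr by -1.50. In the Nodal and activin list 12 of 14 genes fell and 1 rose (median -0.86). With slide and replicate number as terms 3 of these genes fell and 0 rose, although the median was -0.76. Lefty1 and Lefty2, secreted Nodal inhibitors that Nodal signalling itself raises, changed by -4.21 ± 0.54 (adjusted p = 1e-04) and -2.72 ± 0.20 (adjusted p = 3.2e-06), and Nodal by -0.81. The 1 gene that rose, Furin (0.80), is a protease that processes Nodal.

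Formative and primed epiblast genes did not move one way. Otx2, a homeodomain factor of the formative state, had levels of 0.94, 0.96 and 1.29 with both compounds and 3.25, 3.17 and 3.17 in untreated cells and changed by -2.13 ± 0.16 (adjusted p = 3.1e-06). Pou3f1 (Oct6) rose by 2.57 ± 0.29 (adjusted p = 4.9e-05), and Fgf5 rose by 0.94 ± 0.30 (adjusted p = 0.022). Over the list of 22, 11 fell, among them Zic5 (-1.62), Zic2 (-1.37) and Dnmt3b (-1.14), and 7 rose, among them Cdh2 (1.72) and Grhl2 (1.58). The share that rose, 31.8%, was close to the background. The median of the list was -0.40, and 0.09 with slide as a term, when 4 fell and 6 rose.

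Stress genes formed the other raised side of the profile, beginning with the cytosolic chaperones. Hspa1a, an inducible HSP70, had levels of 5.07, 4.88 and 5.05 with both compounds, -1.22, -1.23 and -1.50 with 4OHT, 3.67, 3.79 and 4.30 with MG132 and -0.76, -0.82 and -0.82 in untreated cells. All arrays with both compounds lay above the MG132 arrays, and both groups stood far above the rest. Hspa1a rose by 5.80 ± 0.16 (adjusted p = 1.8e-08). Its near-identical neighbour Hspa1b rose by 4.52 ± 0.18 (adjusted p = 1.1e-07), and the probes may not keep the pair apart. Dnajb1, an HSP40 that works with HSP70, rose by 2.31 ± 0.08 (adjusted p = 5.4e-08). The response was uneven, since 17 of 32 chaperone genes rose, 3 fell, and the median was 0.27, which became -0.14 after median centring. Hsp90aa1, Hspa4, Hspd1 and Stip1 did not pass the test.

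Genes of the integrated stress response, which ATF4 drives, rose widely. Ddit3 (CHOP), a transcription factor of this response, had levels of 3.17, 3.13 and 3.00 with both compounds, -2.15, -1.94 and -2.04 with 4OHT, 1.85, 1.63 and 1.41 with MG132 and -1.48, -1.55 and -1.92 in untreated cells. The arrays with both compounds lay above the MG132 arrays without overlap. It rose by 4.75 ± 0.14 (adjusted p = 2.5e-08). Slc7a11, the cystine transporter, was not well above background on any 4OHT or untreated array and was at least 30-fold higher with both compounds (adjusted p = 1.1e-06). Atf3 rose by 4.72 ± 0.30 (adjusted p = 1.2e-06) and Trib3 by 1.88 ± 0.24 (adjusted p = 0.00011). Of 33 members 28 rose and 0 fell, with a median of 1.43. The stress hormones Gdf15 (4.45) and Fgf21 (3.06) and the glutathione-degrading Chac1 (3.03) rose, while Asns, Aars, Cth, Gpt2 and Slc7a5 did not pass the test.

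Promoters of 4 raised stress genes are shown because they hold letters known as sites of heat shock factor, ATF4, AP-1 or ETS factors. They are RefSeq windows of 300 bases around the gene's start on build GRCm38.p6, 5′ to 3′ on the gene's strand, with each match in capitals. Hspa1a lies on the minus strand at chr17:34972107-34972406 with 1 match of the heat shock element GAANNTTC. Slc7a11 lies on the minus strand at chr3:50443564-50443863 with 2 matches of the ATF4 element TTGCATCA on opposite strands. Atf3 lies on the minus strand at chr1:191183284-191183583 with 1 match of the same element. Ddit3 lies on the plus strand at chr10:127290543-127290842 with 1 match of the AP-1 element TGANTCA and 1 of the ETS element CCGGAAGT.
Hspa1a: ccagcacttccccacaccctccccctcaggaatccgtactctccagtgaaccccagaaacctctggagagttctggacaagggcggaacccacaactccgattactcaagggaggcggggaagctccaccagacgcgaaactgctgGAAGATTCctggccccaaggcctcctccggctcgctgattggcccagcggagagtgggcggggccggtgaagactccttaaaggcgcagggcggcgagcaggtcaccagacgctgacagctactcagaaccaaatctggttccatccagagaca
Slc7a11: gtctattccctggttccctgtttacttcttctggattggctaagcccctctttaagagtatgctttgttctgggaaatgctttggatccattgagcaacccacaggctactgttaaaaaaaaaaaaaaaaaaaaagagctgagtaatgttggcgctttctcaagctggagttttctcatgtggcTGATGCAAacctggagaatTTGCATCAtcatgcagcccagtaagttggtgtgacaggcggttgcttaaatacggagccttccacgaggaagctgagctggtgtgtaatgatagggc
Atf3: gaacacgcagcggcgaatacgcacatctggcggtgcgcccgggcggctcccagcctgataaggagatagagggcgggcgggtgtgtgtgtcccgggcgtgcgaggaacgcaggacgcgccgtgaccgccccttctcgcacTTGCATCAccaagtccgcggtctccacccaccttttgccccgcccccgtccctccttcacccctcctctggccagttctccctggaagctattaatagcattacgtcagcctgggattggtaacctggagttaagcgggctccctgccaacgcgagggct
Ddit3: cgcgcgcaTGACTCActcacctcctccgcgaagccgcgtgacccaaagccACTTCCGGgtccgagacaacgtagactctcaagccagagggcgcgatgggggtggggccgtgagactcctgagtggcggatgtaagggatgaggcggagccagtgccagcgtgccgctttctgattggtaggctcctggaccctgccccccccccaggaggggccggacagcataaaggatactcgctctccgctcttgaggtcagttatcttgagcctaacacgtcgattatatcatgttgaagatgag

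Across lists, GAANNTTC was present in 8 of 14 promoters of chaperone genes that rose (57.1%), against 7.13% of the 12644 promoters of genes tested. Hspa1a and Hspa1b, whose windows are near-identical, are both among the 8. It was also present in 2 of 3 promoters of chaperone genes that fell (66.7%), too few promoters to compare with those that rose. The longer form GAANNTTC followed by NNGAA was present in 3 of the 14 that rose and 0 of the 3 that fell, against 0.593% of all. TTGCATCA was present in 6 of 25 promoters of ATF4 list genes that rose (24%), against 0.799% of all. The antioxidant element TGACNNNGC was present in 5 of 11 promoters of NRF2 list genes that rose (45.5%) and 1 of 3 that fell (33.3%), against 16.4% of all. Both strands were searched; the 2 heat shock forms overlap by construction, and a match describes letters only. The cyclic AMP element TGACGTCA was present in 2 of 15 promoters of immediate-early genes that rose (13.3%), against 3.3% of all. Neither TGANTCA nor CCGGAAGT was present in any of those 15, against 6.65% and 7.62% of all.

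Oxidative stress, ubiquitin and proteasome genes moved less uniformly. Hmox1, haem oxygenase, had levels of 5.16, 5.14 and 4.88 with both compounds and 2.57, 2.61 and 2.69 in untreated cells and rose by 2.43 ± 0.12 (adjusted p = 2.8e-07). In the NRF2 and metal response list 13 of 23 genes rose and 3 fell (median 0.49), Osgin1 (4.15) and Srxn1 (3.21) rising and the metallothionein Mt1 (-1.29) falling. Sqstm1 (p62), the receptor that carries ubiquitin-tagged protein to autophagy, rose by 2.84 ± 0.15 (adjusted p = 4.3e-07). The ubiquitin gene Ubb rose by 0.64 ± 0.09 (adjusted p = 0.00018). In the ubiquitin and aggregate handling list 14 of 24 genes rose and 4 fell (median 0.50).

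Proteasome genes stayed close to the background. Of 46 tested 16 rose and 8 fell, with a median of 0.12 that became -0.28 after median centring, when 3 rose and 17 fell. Psmd14, the lid subunit that removes ubiquitin, rose by 0.91 ± 0.10 (adjusted p = 3.3e-05). Psmb10 and Psme1, parts of the immunoproteasome and its activator, changed by -1.93 ± 0.18 (adjusted p = 1.3e-05) and -1.08 ± 0.09 (adjusted p = 6.6e-06). Among 24 endoplasmic reticulum chaperones and regulators 10 rose and 2 fell, led by Herpud1 (2.40), and their median of 0.28 became -0.12 after median centring.

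Targets of p53 rose nearly throughout. Pmaip1 (NOXA), a pro-apoptotic member of the Bcl2 family, had levels of 4.08, 3.94 and 4.31 with both compounds, 2.04, 2.22 and 1.63 with 4OHT, 2.05, 1.94 and 2.11 with MG132 and -0.84, -0.79 and -0.90 in untreated cells. Each compound alone lay above untreated cells, and both together lay above each alone. Pmaip1 rose by 4.96 ± 0.15 (adjusted p = 2.5e-08). Mdm2, the ubiquitin ligase that degrades p53, rose by 3.28 ± 0.09 (adjusted p = 2.2e-08), with levels of 7.36, 7.40 and 7.27 with both compounds and 4.02, 4.01 and 4.16 in untreated cells. Cdkn1a (p21), the cell cycle inhibitor, had levels of 3.14, 3.08 and 3.28 with both compounds, 0.43, -0.16 and 0.06 with 4OHT, 2.19, 2.23 and 2.32 with MG132 and 1.30, 1.21 and 1.28 in untreated cells. The 4OHT arrays were lowest and the arrays with both compounds highest, and Cdkn1a rose by 1.90 ± 0.14 (adjusted p = 2.5e-06).

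Of 29 p53 targets 25 rose and 3 fell (median 2.05). Perp (4.03), Plk2 (3.96) and Ddit4l (3.57) rose, Fas, which encodes a death receptor, was higher by at least 8.79-fold, and Rrm2b (-1.01), Sesn1 (-0.58) and Ei24 (-0.41) fell. The Bcl2 family as a whole was divided, 7 of 15 members rising and 6 falling, with a median of 0.42. Besides Pmaip1, the killers Hrk (2.54), Bcl2l11 (1.72) and Bbc3 (1.14) rose, while Bmf (-2.33), Bad (-1.03) and Bak1 (-1.01) fell, and the survival genes Bcl2 and Mcl1 did not pass the test.

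Metabolic and cell cycle genes also moved. Insig1, a membrane protein that retains the sterol sensor complex in the endoplasmic reticulum, rose by 2.43 ± 0.25 (adjusted p = 2.6e-05). In the cholesterol list 18 of 24 genes rose and 3 fell, and the median was 1.1. Of 24 glycolysis and hypoxia genes 11 fell and 5 rose (median -0.41), with Bnip3, a mitophagy receptor, at -3.19 ± 0.37 (adjusted p = 5.6e-05) and the enzyme Pfkl at -1.98 ± 0.11 (adjusted p = 6.4e-07). Adm, a vasodilator peptide gene of the hypoxia response, went the other way, at 3.18 ± 0.39 (adjusted p = 8.2e-05). In the mitotic list 11 of 22 genes fell and 1 rose, and the median was -0.47. The mitotic kinase Aurkb and cyclin Ccnb2 changed by -1.19 ± 0.11 (adjusted p = 1.1e-05) and -1.21 ± 0.10 (adjusted p = 6.7e-06), and Mki67 and Top2a did not pass the test.

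Among lineage genes, 10 of 16 in the trophoblast list rose and 3 fell, with a median of 0.87. Cdx2, a homeodomain factor of trophoblast and posterior embryo, had levels of -0.44, -0.32 and -0.98 with both compounds, 2.27, 2.18 and -1.17 with 4OHT, -6.13, -6.63 and -5.98 with MG132 and -6.68, -7.54 and -5.81 in untreated cells. It was not well above background on any MG132 or untreated array, and was at least 36.7-fold higher with both compounds (adjusted p = 0.00013). With 4OHT, replicates 1 and 2 lay above and replicate 3 just below the arrays with both compounds. Hand1 and the keratin Krt18 also rose (3.21 and 2.79), and Hand1 was above background on 1 of 3 untreated arrays. Cdx2, Hand1 and Krt18 are themselves part of the trophoblast marker sum given above. With slide and replicate number as terms 6 of the 16 rose and 3 fell. A part of other cells in these changes was not tested.

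Mesendoderm genes were mixed, 8 of 16 rising and 5 falling, with a median of 0.83. Eomes and Evx1 rose by 2.84 ± 0.20 (adjusted p = 2.6e-06) and 2.73 ± 0.24 (adjusted p = 8.7e-06), and T (brachyury) rose by 1.68 ± 0.28 (adjusted p = 0.00055), while Gsc changed by -2.55. In the primitive endoderm list 6 of 23 genes rose and 2 fell, and the median of 0.34 became -0.07 after median centring. The defining factors Gata4, Gata6 and Sox17 did not pass the test. In the neural progenitor list 2 of 11 genes rose and 3 fell, and the median of -0.34 became 0.11 with slide as a term. Of 11 fibroblast genes 4 rose, among them the calcium-binding S100a4 (3.73), and 1 fell, with a median of 0.36 that became -0.04 after median centring.

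Other signalling lists added single strong genes. Ccl20, a chemokine, was not well above background on any MG132 or untreated array and was at least 534-fold higher with both compounds (adjusted p = 1e-06). Its levels with both compounds, 3.52, 3.47 and 2.87, overlapped those with 4OHT, 4.04, 4.22 and 2.07. Cxcl10, a chemokine of the interferon response, rose by 6.10 ± 0.35 (adjusted p = 7.1e-07) and was above background on 1 of 3 untreated arrays. Of 18 chemokine and NF-kB genes 8 rose and 4 fell, the inhibitor Nfkbia (-1.41) among those that fell, with a median of -0.10. In the retinoic acid list 10 of 15 genes rose and 3 fell (median 1.03), led by the synthesis enzyme Aldh1a3 at 4.12 ± 0.35 (adjusted p = 7.7e-06). Of 17 Wnt targets 10 rose and 4 fell with a median of 0.80, the secreted inhibitor Wif1 at 3.20 and the transcription factor Ascl2 among those that fell. Of 16 BMP and SMAD genes 6 rose and 4 fell (median 0.32), and of 23 cytoskeletal targets of SRF and YAP 8 rose and 7 fell (median 0.25).

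Of 30 ribosome biogenesis genes 11 rose and 7 fell (median 0.11), and of 13 replication-dependent histone genes 1 rose and 2 fell (median 0.01). The medians of the BMP, SRF, ribosome and histone lists became -0.09, -0.15, -0.29 and -0.40 after median centring. Of 14 genes of the 2-cell-like state 5 rose (35.7%, close to the background) and 1 fell, with a median of 1.52, or 1.46 with the dim gene at its bound. There were 1, 2 and 2 that rose with quantile scaling, with median centring and with slide as a term, which gave a median of 3.21. The near-identical Usp17la, Usp17lc and Usp17ld were among the 5, and probes may not separate them.

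Beyond the lists, the largest risers included Afp (alpha-fetoprotein, a yolk sac and fetal liver protein), which was not well above background on any untreated array and was at least 93.4-fold higher with both compounds (adjusted p = 1.7e-07). Afp had levels of 0.97, 0.85 and 0.50 with both compounds, -4.50, -4.31 and -6.03 with 4OHT and -4.43, -4.55 and -4.07 with MG132, and was above background on 1 of 3 4OHT arrays. The keratin gene Krt23 was at least 53.5-fold higher (adjusted p = 1.7e-07), the neuropeptide precursor Tac1 at least 46.6-fold (adjusted p = 2.9e-07) and the immune receptor Btla at least 36-fold (adjusted p = 1.4e-07). Bglap3, of the osteocalcin gene family, was measured in both groups and rose by 7.21 ± 0.15 (adjusted p = 7.8e-09). The largest fallers included Lefty1, Klf15 (-3.59), Mymx (-3.48) and Lrrn2 (-3.74). Foxr2, Ppp1r3g and Lrtm2 were not well above background on any array with both compounds, and were at least 7.07-fold, 7.22-fold and 8.96-fold lower (adjusted p = 2.8e-05, 3e-04 and 5e-04).

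Which compound prevailed was read from genes that each compound alone changed past the test and at least 2-fold, which was 2979 genes (11.1%) for 4OHT and 4282 (16%) for MG132. All 3 comparisons share the untreated arrays, so the counts describe the groups and were not tested against each other. The 2 compounds moved 320 genes in opposite directions. With both present, 169 of these changed in the direction of MG132 and 26 in the direction of 4OHT. Another 71 did not pass the test, with the 95% interval of their change inside -1 to 1, and 54 were undetermined. Of the 169, 4OHT alone lowered 139 and raised 30. Of the 26 it raised 21 and lowered 5. It lowered 52 and raised 19 of the 71, and lowered 43 and raised 11 of the 54. With slide and replicate number as terms the counts were 102, 10 and 39 for the MG132 direction, the 4OHT direction and the small net change, and with normexp background correction they were 20, 13 and 12. An interaction, defined below, was called above 0 in 31 and below 0 in 11 of the 169, above in 4 and below in 1 of the 26, and above in 4 and below in 3 of the 71.

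Gbx2, a homeodomain gene of the naive network that STAT3 raises, ended in the MG132 direction. Its levels were -1.83, -2.26 and -1.90 with both compounds, 2.96, 2.86 and 3.10 with 4OHT, -1.32, -1.37 and -1.39 with MG132 and 0.34, 0.32 and 0.56 in untreated cells. The arrays with both compounds lay below even the MG132 arrays, and Gbx2 changed by -2.40 ± 0.13 (adjusted p = 4.8e-07). Tsc22d3 (GILZ), a leucine zipper gene known as a glucocorticoid target, changed by 3.09 ± 0.31 with both compounds, -2.57 with 4OHT and 3.31 with MG132. Pax6, a neural and eye factor, changed by -2.09 ± 0.48 with both compounds, 1.85 with 4OHT and -2.59 with MG132. Skor1, Ddx58, Scn3b, Ephx1 and Ppp1r16b were the other named genes of this kind, and Pax6, Skor1, Ddx58 and Ephx1 did not pass the test once slide and replicate number were terms.

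Egr1 and Spry4 were among the 26 that followed 4OHT. With MG132 alone they changed by -2.96 and -2.46, with 4OHT alone by 3.09 and 3.33, and with both by 5.39 and 2.90. Pou4f2, a neuronal factor, changed by 1.48 ± 0.32 with both compounds, 2.84 with 4OHT and -1.81 with MG132. Cited4, a coactivator gene, went the opposite way, by -1.10 ± 0.23 with both compounds, -2.54 with 4OHT and 1.62 with MG132. Btbd17, Plppr3 and Hoxb13 completed the named set. Cited4, Btbd17, Plppr3 and Hoxb13 did not pass the test with slide and replicate number as terms, and Hoxb13 was not well above background on any 4OHT array or array with both compounds.

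Myc, a growth factor-responsive transcription factor, was among the 71 whose opposed changes left little net difference. It had levels of 1.24, 1.22 and 1.14 with both compounds, 3.67, 3.80 and 3.51 with 4OHT, 0.50, 0.54 and -0.08 with MG132 and 1.43, 1.54 and 1.94 in untreated cells. The arrays with both compounds lay just below the untreated ones. Its change with both compounds was -0.44 ± 0.18 (95% interval -0.84 to -0.04, adjusted p = 0.061), beside 2.02 with 4OHT and -1.31 with MG132. Trh, the thyrotropin-releasing hormone precursor, changed by -0.32 ± 0.24 with both compounds (95% interval -0.86 to 0.22, adjusted p = 0.28), 1.59 with 4OHT and -1.82 with MG132. Wsb2 (0.30), Crct1 (-0.20), Fbxo24 (-0.41), Slc2a6 (0.37), Adcy2 (0.38), Ddr2 (-0.17) and Fam189a1 (0.07) gave the other net changes, none of which passed the test.

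**Figure D3:**
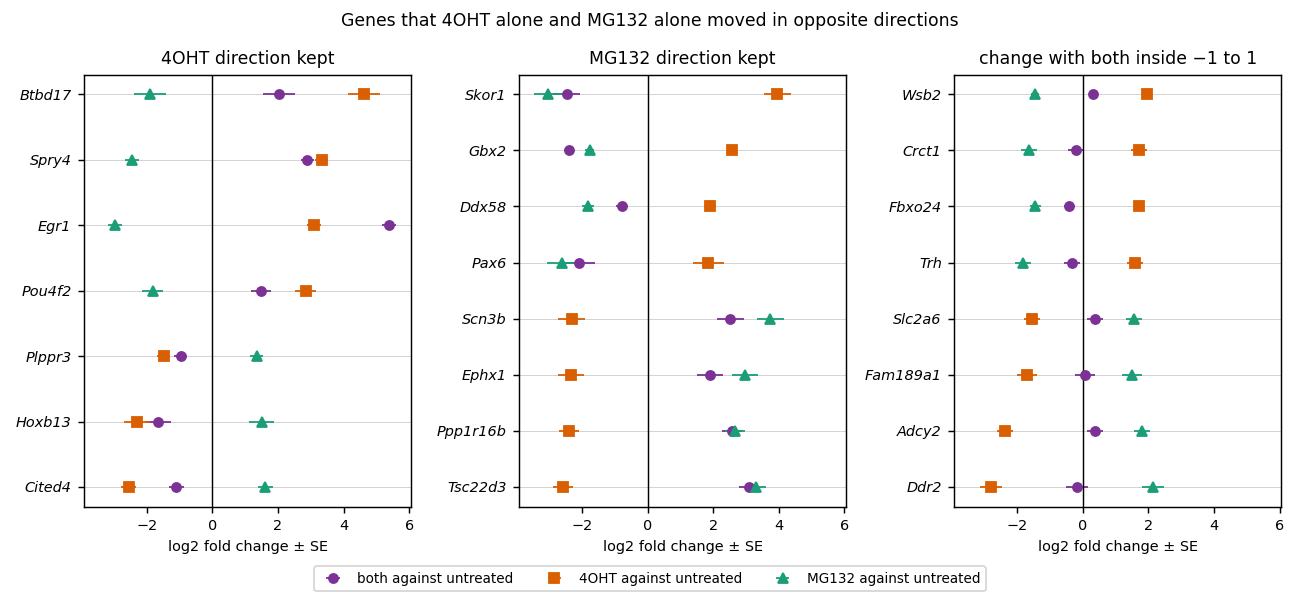
Log2 fold changes with SE of named genes that 4OHT alone and MG132 alone moved in opposite directions, with both compounds (circles), 4OHT (squares) and MG132 (triangles), each against the same untreated arrays. Circles lie on the 4OHT side in the left panel, on the MG132 side in the middle panel and between -1 and 1 in the right panel.

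Another 626 genes moved at least 2-fold in the same direction with each compound alone. With both present 217 of them went beyond each single compound and 409 did not. Nanog, Klf2, Pmaip1, Fosl1, Afp and Perp were among the 217. Dhh (desert hedgehog), also among them, had levels of 0.97, 0.85 and 0.84 with both compounds, -0.57, -0.48 and -1.02 with 4OHT, 0.36, 0.15 and 0.39 with MG132 and -4.36, -4.14 and -4.38 in untreated cells. The arrays with both compounds were highest, and the change of 5.18 ± 0.14 lay below the sum of the single changes, 8.19. Klf4, Lefty1, Lefty2, Id2, Phlda1 and T were among the 409.

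Whether the effects added was tested per gene as the interaction, the change with both compounds minus the sum of the 2 single changes on the log2 scale. It was above 0 in 790 genes (2.94%) and below 0 in 969 (3.61%), and a gene that misses this test is not shown to add. Untreated cells were titled 0 h and all other groups had 6 h with compound. A change over these hours would enter each single change, so their sum would count it more often than the combined change does. Such a shift cannot be told apart here from effects that do not add. With replicate number as a block 1222 genes lay above 0, and with slide and replicate number 322 lay above and 482 below. Leaving out 1 array gave 437 to 506 above 0 without replicate 1 or 2 of the combined, MG132 or untreated group, and 1318 without replicate 3 of 4OHT. Below 0 it gave 600 to 641 without replicate 1 or 2 of the combined or MG132 group or replicate 2 of untreated cells. Egr1 went beyond the sum, with a change of 5.39 with both compounds where the single changes sum to 0.13, an interaction of 5.25 ± 0.30 (adjusted p = 3.8e-05). Cdkn1a (2.07 ± 0.19, adjusted p = 0.00042), Ddit3 (1.86 ± 0.20, adjusted p = 0.001), Spry4 (2.03 ± 0.30, adjusted p = 0.0039), Hspa1a (1.59 ± 0.22, adjusted p = 0.003) and Fos (1.43 ± 0.28, adjusted p = 0.014) were above the sum as well.

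Lefty1 had an interaction of 5.88 ± 0.76 (adjusted p = 0.0024), and each compound alone also lowered it. Its levels were -1.46, -1.10 and -1.86 with both compounds, -4.12, -4.15 and -1.81 with 4OHT, -1.08, -0.95 and -1.74 with MG132 and 2.69, 2.91 and 2.60 in untreated cells. The 4OHT arrays spread widely, replicate 3 lying well above the others. Nanog, which each compound alone lowered too, had an interaction of 0.98 ± 0.19 (adjusted p = 0.013). Gbx2 lay below the sum, with an interaction of -3.21 ± 0.18 (adjusted p = 3.8e-05) where the single changes sum to 0.80. Gsx1, a homeodomain gene, had an interaction of -4.67 ± 0.51 (adjusted p = 0.00096).

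A set of 46 genes was called and at least 2-fold changed with both compounds, had an interaction in the same direction, and passed the test with neither compound alone; there were 16 with slide and replicate number as terms, 30 without MG132 replicate 2 and 98 without MG132 replicate 3. Rgcc, a regulator of the cell cycle, had levels of -1.63, -1.58 and -1.52 with both compounds, -4.51, -4.51 and -4.41 with 4OHT, -3.68, -3.60 and -3.17 with MG132 and -4.46, -4.14 and -3.23 in untreated cells, and rose by 2.37 ± 0.26 (adjusted p = 4.2e-05). Dll1, a Notch ligand, rose by 1.99 ± 0.31 (adjusted p = 4e-04) and the receptor gene Gpr1 by 3.02 ± 0.41 (adjusted p = 0.00016). Gad2 and Gsdmc3 were well above background only with both compounds, and were at least 2.58-fold and 3.6-fold higher than in untreated cells. These 2 genes passed the filter only through the group where they were high, so their calls are no independent test of the rise.

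**Figure D4:**
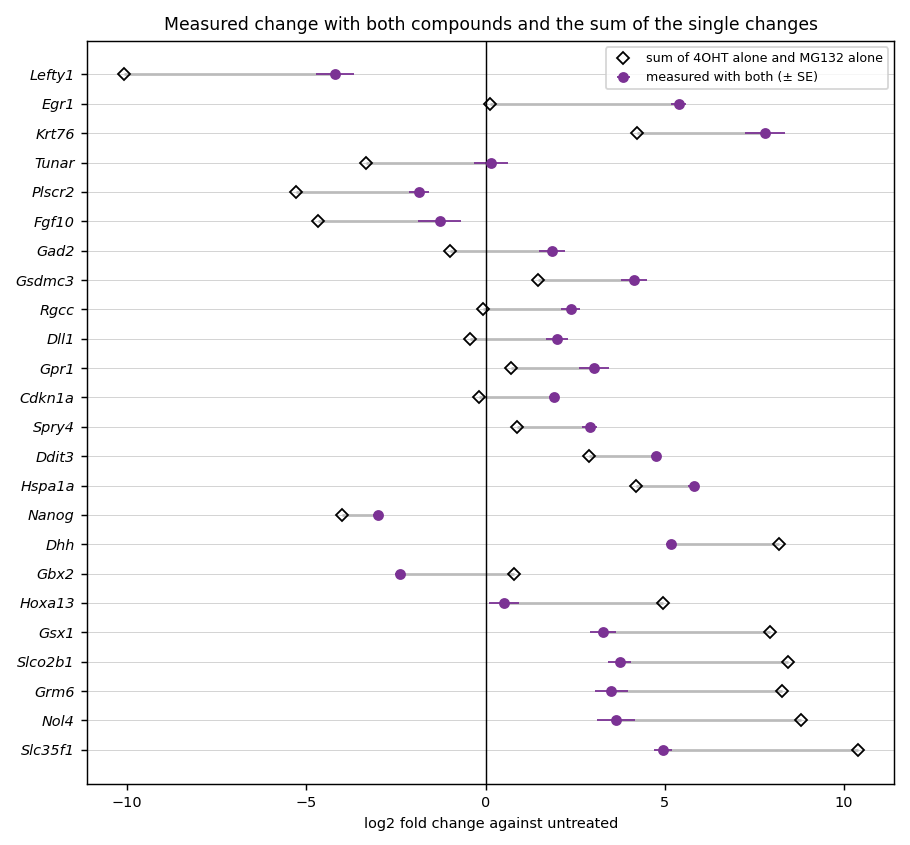
For genes with a called interaction, the circle is the log2 fold change measured with both compounds against untreated cells (with SE) and the diamond is the sum of the changes with 4OHT alone and MG132 alone. The interaction was 5.25 for Egr1 and -3.21 for Gbx2; genes not above background in untreated cells, such as Slc35f1 and Grm6, have fitted changes that are no bound.

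With slide and replicate number as terms, 6055 genes were called, of which 5855 were also called without these terms, all in the same direction. The slide effect in this fit rests on MG132 replicate 3 lying on the other slide from MG132 replicates 1 and 2. Replicate differences shared by all groups are fitted along with it. Of the 25 genes fixed for display, 24 were called without the terms, and of these 24 kept their direction and 19 their call. Egr1 changed by 5.89 ± 0.32, Nanog by -2.86 ± 0.29, Hspa1a by 5.16 ± 0.21, Ddit3 by 4.89 ± 0.24 and Mdm2 by 3.16 ± 0.19 in that fit. The interaction was 5.59 ± 0.29 for Egr1 and -3.05 ± 0.18 for Gbx2. Myc turned to 0.20 ± 0.29, and the changes of Pou5f1 (-0.41 ± 0.30), Klf4 (-2.17 ± 0.63), Ubb (0.46 ± 0.17), Fgf5 (1.55 ± 0.66) and Cdx2 (a fitted 4.80 ± 1.74, no bound) no longer passed the test. Of 146 named genes called without the terms 116 kept their call and 30 did not, Lefty1, Lrrn2, Lrtm2, Dll1 and Gad2 among the 30. Of 57 named genes with a called interaction 30 kept it and all 57 kept its direction, while the interactions of Nanog, Fos, Dll1, Gad2 and Gsdmc3 no longer passed the test. Among the lists, 22 p53 targets rose and 1 fell in that fit, 27 ATF4 list genes rose and 0 fell, 18 immediate-early genes rose and 0 fell, and 13 feedback genes rose and 2 fell. There were 15 naive pluripotency genes that fell and 2 that rose, 10 LIF and STAT3 targets that fell and 1 that rose, and 14 cholesterol genes that rose and 1 that fell. Of the chaperones 11 rose and 1 fell, of the ubiquitin list 8 rose and 0 fell, and of the proteasome genes 5 rose and 5 fell. Calls in the general pluripotency list were 8 that fell and 1 that rose, and in the mitotic list 6 that fell and 0 that rose. In the same fit 268 of the 14932 genes called without these terms had the opposite direction.

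**Figure D5:**
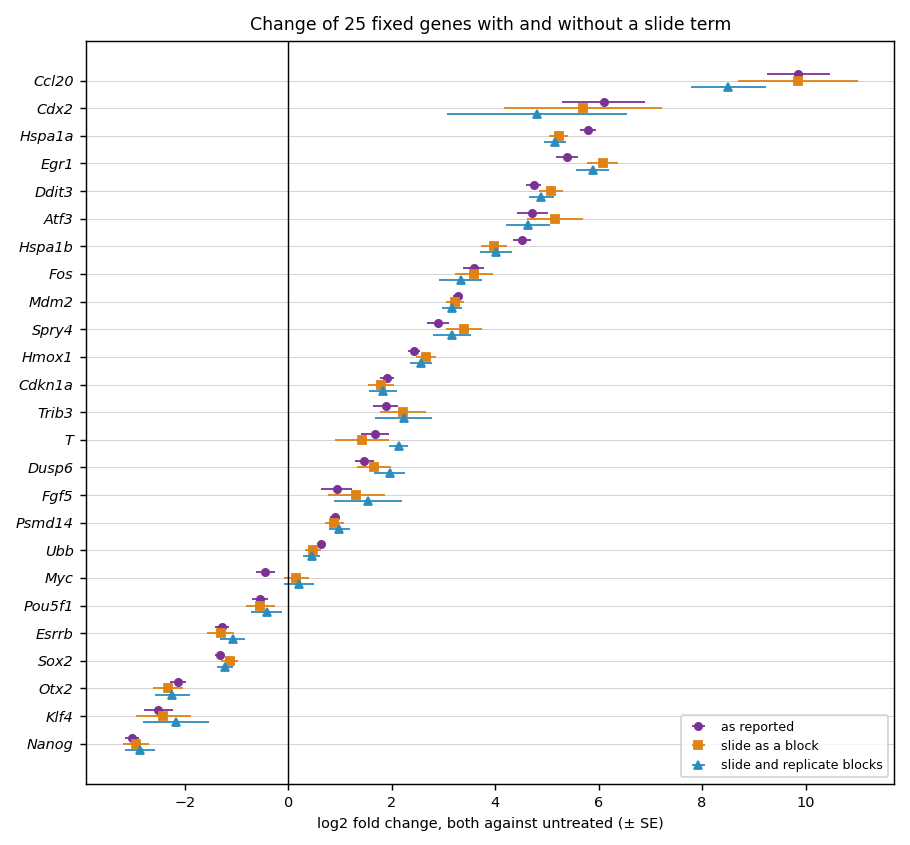
Log2 fold changes with SE of 25 fixed genes, both compounds against untreated cells, as reported (circles), with slide as a term (squares) and with slide and replicate as terms (triangles). The points of a gene lie on the same side of 0 except for Myc.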

How the data were processed

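RNA of mouse embryonic stem cells was hybridised to 12 1-colour Agilent arrays of 62976 spots, 3 in each of 4 groups. Per the file headers, Agilent Feature Extraction 11.0.1.1 made the processed signal intensity of each spot that the authors deposited, in a scanner file for every array. They also deposited a table of intensity values identical to the processed signal, so its scale is linear and uncentred (array medians 18.0 to 27.6). Other steps are not given in the sources used here. Control spots (3671) and outlier flags were left out. From the deposited intensity, log2 values were taken and each array's 75th percentile (309 to 485 units) was subtracted. Spots of a probe were averaged, probes above background in at least 1 whole group were kept (34327 of 56605), and the brightest probe stood for a gene with several. Of all probes 32994 (58.3%) matched a RefSeq gene through their deposited accession and took its symbol, the others kept the accession, and 171 genes had probes that disagreed on the change. No spot was saturated.

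All 12 arrays were fitted in limma 3.58.1 (R 4.3.3) with lmFit and eBayes, 1 coefficient a group, over 26836 genes, with adjustment by Benjamini-Hochberg and calls at 0.05. The fit was tested on simulated data. Labels say the replicates are biological. A gene above background on no array of a group has a bound: the bright group's mean against the higher, per array, of the dim probe's own signal and the lowest signal among probes above background. An adjusted p printed beside a bound belongs to the fitted change, not to the bound. A gene bright in a single group passed the filter only through that group.

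Named genes were 25 fixed genes, the 10 largest rises and falls whose groups did not overlap, the 3 largest bounds each way, up to 3 called members of each of 31 lists, 4 genes per class and direction, 5 combination genes and 6 interactions each way; further list members are named after their values were seen. The members and lists were chosen with earlier results of these data known. Replicate numbers come from the titles. Same-numbered arrays of the combined and untreated groups deviated together in every pair (r = 0.132, 0.152 and 0.354 across genes), which met the criterion of 0.1 for a paired fit. Replicates 1 and 2 deviated together across numbers as well (r = 0.156 and 0.121), and replicate 3 against them did not (r = -0.2 to -0.245), so the values set replicate 3 apart and do not tell pairs 1 and 2 from each other. Normexp was run on the median signal. Alternatives were quantile normalization, median centring, normexp with offset 50, other filters, probe means, array weights, robust variances, 6 arrays only, slide and replicate terms, a fold minimum and each array left out. Some named genes are not reported here.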

Additional observations from a re-analysis of the deposited data

Results flagged for a closer look

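The change with MG132 in the presence of 4OHT differed from the change with MG132 alone, by the interaction term of the limma fit (adjusted p under 0.05, n = 3 arrays a group), in 57 of the 158 named genes, 28 with an interaction above 0 and 29 below. The share called over all genes was 2.94% above and 3.61% below, and the named genes include 6 each way chosen for the size of this value. They also include 5 combination genes, chosen by size from a class that requires a called interaction. The count of named genes is therefore no measure against that share. Each value below is the log2 change with both compounds minus the sum of the single changes. Hours of culture enter each single change and cannot be told apart from such an interaction.

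Among genes above background on at least 1 array of every group, an interaction above 0 was found for the ERK-responsive, stress and p53 target genes Egr1 (5.25), Cdkn1a (2.07), Spry4 (2.03), Ddit3 (1.86), Hspa1a (1.59), Fos (1.43), Dnajb1 (0.98) and Hmox1 (0.64). It was also above 0 for the pluripotency and signalling genes Lefty1 (5.88), Lefty2 (1.99), Id2 (1.21) and Nanog (0.98), all of which were lower with both compounds than in untreated cells. The others above 0 were Tunar (3.48), Fgf10 (3.41), Lrrn2 (2.68), Rgcc (2.44), Dll1 (2.42), Tsc22d3 (2.36) and Gpr1 (2.31).

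Below 0, the pluripotency and epiblast genes were Gbx2 (-3.21), Foxd3 (-1.81), Pou3f1 (-1.79), Fgf5 (-1.64), Otx2 (-1.03), Dnmt3l (-0.68) and Sox2 (-0.60). The mesendoderm genes were T (-2.07), Evx1 (-1.57) and Eomes (-1.21). The other genes below 0 that were above background on at least 1 array of every group were Gsx1 (-4.67), Msx1 (-3.22), Dhh (-3.02), Fhl2 (-2.80), Aldh1a3 (-2.54), 4933408N05Rik (-2.32), Fosl1 (-2.30), Perp (-1.44), S100a4 (-1.25), Myc (-1.15), Bop1 (-0.67) and Psmg2 (-0.64).

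The remaining genes were above background on no array of at least 1 group, so that the fitted interaction depends on dim signal, is no bound, and carries no order of size. Above 0 these were Krt76 (3.57), Plscr2 (3.45), Lrtm2 (3.06), Gad2 (2.86), Gsdmc3 (2.67), Slco1a5 (2.41), Ppp1r16b (2.30), Afp (2.13) and Skida1 (1.19). Below 0 they were Slc35f1 (-5.43), Nol4 (-5.15), Grm6 (-4.77), Slco2b1 (-4.69), Hoxa13 (-4.42), Filip1l (-3.83) and Skor1 (-3.39). With slide and replicate number as terms 30 of the 57 interactions passed the test and all 57 kept their direction.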

How the results depend on the processing

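Most values kept their direction and their side of the threshold: of the values for named genes in the settings run, 4053 did so, 79 no longer passed, 42 newly passed and 29 changed sign; of the interaction values 1204 held, 252 no longer passed and 0 changed sign. The causes of the changes below were not tested. Some settings test fewer probes, spend degrees of freedom or add a threshold. With slide as a fixed term 7022 genes were called (3801 rose, 3221 fell), the interaction was called in 355 genes above 0 and 447 below, and the counts were 11 for the 4OHT direction kept, 89 for the MG132 direction kept, 26 for opposed genes with a small net change, 75 for genes beyond each compound alone and 29 for genes changed only by the combination. With slide and replicate block together they were 6055 (3377 rose, 2678 fell), 322 and 482, 10, 102, 39, 64 and 16 in the same order. The replicate block alone gave 15774 called genes and an interaction above 0 in 1222, and changed no other count by over 1.5 times; all 146 named calls held. With normexp the classes held 13, 20, 12, 73 and 15 genes. With median centring 4451 rose and 9995 fell, 638 interactions lay below 0 and 41 genes kept the 4OHT direction. Without a filter 1691 interactions lay below 0. With probes above background on all 12 arrays 84 genes kept the MG132 direction, 32 had a small net change and 143 went beyond each alone. Array weights gave interactions of 3451 above and 2597 below, 48 genes in the 4OHT direction and 122 changed only by the combination. A fold minimum of 2 left 6319 genes (4035 rose, 2284 fell) and interactions of 454 above and 587 below.

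Some changes of named genes changed sign, and not all of them were near 0. With normexp these were Crct1 (0.081), Ddr2 (0.12) and Hoxb13 (0.01). With quantile normalization they were Adcy2 (-0.026), Fam189a1 (-0.38), Hoxa13 (-0.022), Slc2a6 (-0.054) and Tunar (-0.074). With median centring they were Adcy2 (-0.025), Fam189a1 (-0.34), Slc2a6 (-0.037), Tunar (-0.27) and Wsb2 (-0.10). With probe means they were Ddr2 (0.21), Plppr3 (0.11) and Tunar (-0.075). With slide as a fixed term they were Fam189a1 (-0.60), Il6 (-1.14), Myc (0.16) and Tunar (-0.034), with slide as a random block Fam189a1 (-0.016), and with slide and replicate block Fam189a1 (-0.36), Il6 (-0.86), Myc (0.20) and Slc2a6 (-0.044). Il6, Plppr3 and Hoxb13 had been called. Across the settings Il6 ran from -1.14 to 3.87. Leaving out 1 array gave 12890 to 16473 called genes (7555 to 10013 rose, 5304 to 6460 fell), interactions of 437 to 1318 above and 600 to 1211 below, and 23 to 31, 144 to 232, 49 to 79, 164 to 243 and 30 to 98 genes in the classes. It moved Fam189a1 between -0.094 and 0.27 (below 0 without untreated replicate 2 or replicate 3 of the combined group), Crct1 between -0.42 and 0.092 (above 0 without the same replicate 3) and Ddr2 between -0.49 and 0.096 (above 0 without replicate 1 of the combined group). The 75th percentile over probes was an alternative chosen after seeing the data. The fit on 6 arrays gives no interaction and no class. It called 17508 genes (10793 rose, 6715 fell).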
